A study of Mus musculus with 2 samples.

Results

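Mast cells are tissue-resident immune cells packed with granules in which proteases are held on heparin together with histamine. They leave the marrow as progenitors and mature in connective tissue under stem cell factor, which binds the receptor Kit. They release their granules when antigen cross-links IgE on the high-affinity IgE receptor or when cationic ligands engage Mrgpr receptors. In the mammary gland they lie in the stroma around ducts and vessels. The 10 genes described here are the granule proteases Cpa3, Tpsb2, Tpsab1, Mcpt4 and Cma1, the receptors Mrgprb1, Kit, Ms4a2 and Fcer1a, and the histamine-forming enzyme Hdc. They were taken by gene symbol from the deposited comparison table, and all 10 were found among 24646 symbols, each on 1 transcript cluster. Membership goes by gene name, but the list was drawn up with earlier results of these data known, so its counts are a description.

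The study compared 2 samples of mouse mammary stromal cells on Affymetrix arrays, 1 from mice with Gli2 ablated in the stroma (Gli2∆S) and 1 from control littermates with intact Gli2 (Gli2WT), both 10 weeks old. In both samples the cells carried Fsp1-Cre, in which the promoter of Fsp1 (S100a4) drives Cre recombinase, together with the Rosa26 mTmG reporter, and were sorted for the GFP that this reporter gives after Cre has acted. The sort therefore takes every cell in which Fsp1-Cre has acted. S100a4 is known to be active in some leukocytes as well as in fibroblasts. Neither the mouse strain nor the number of mice per sample is given in the labels. The comparison asks which stromal genes depend on Gli2, a transcription factor through which hedgehog signals act. With 1 sample per group no difference has a replicate check and no p-value is given, and the number of arrays limits the precision.

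All values are log2 signals, and every difference is the ablated minus the control sample. Signals of different genes come from different probes and are not set against each other. Detection calls were not used here, so a signal filter was set at 6.445, the median over all genes of the higher of both signals, and 12323 genes passed it. Gli2 stayed below the filter, at 5.32 in the ablated sample and 5.94 in the control sample in the comparison table. The deposited series matrix gave 5.72 and 5.94, so the difference of Gli2 was -0.62 in one table and -0.22 in the other. S100a4, the gene whose promoter drives Cre, had 7.98 in the ablated sample and 8.16 in the control sample.

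Most of the 10 mast cell genes described were lower in the ablated sample. The gaps were widest for the tryptase Tpsb2, the receptor Mrgprb1, the carboxypeptidase Cpa3 and the chymase Mcpt4. This does not extend to every mast cell gene, since of 21 others 11 were lower and 10 higher. Below the signal filter lay 10 of the 21. Of the 11 that passed it, which a gene can do through its higher sample alone, 8 were lower and 3 higher. Of the 10 genes described, 9 were lower, 1 was equal in both samples and 0 were higher, while 47.0% of all genes were lower. At least 1.5-fold lower were 4 of the 10, against 3.3% of all genes. Mcpt4 only just reached this size, with an authors' deposited fold of 1.5. None of the 10 reached 2-fold, a size reached by 0.933% of all genes on the lower side and 0.304% on the higher side. The median difference of the 10 genes was -0.30, beside 0.00 over all genes. Their differences ran from -0.95 to 0.00, so they were not lower by a common amount. In bulk RNA of this kind, fewer mast cells and less of these transcripts per mast cell cannot be told apart.

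**Figure D1:**
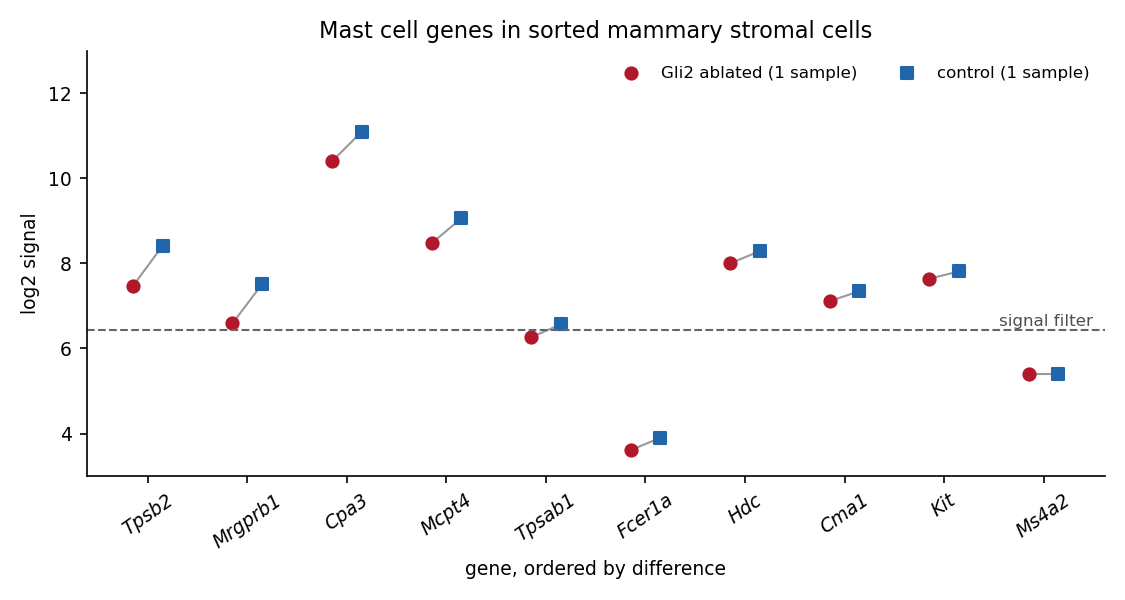
Log2 signal of the 10 mast cell genes in the Gli2-ablated sample (red circles) and the control sample (blue squares), 1 sample each, ordered by their difference. The control signal is the higher one in 9 genes and equals the ablated signal in Ms4a2; Fcer1a and Ms4a2 lie below the dashed signal filter of 6.445.

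The 5 proteases were all lower (median difference -0.59), and 3 of them were at least 1.5-fold lower, against 3.3% of all genes. Tpsb2, a tryptase that is stored as a heparin-bound tetramer and cuts after basic residues, had 7.47 in the ablated sample and 8.42 in the control sample. It was 1.93-fold lower in the ablated sample (difference -0.95), the widest gap among the 10 genes. Genes were sorted into 20 bins of mean signal to see how common such a gap was, and 2.27% of the 1233 genes in its bin were as low. The spread of differences in that bin, a median absolute deviation scaled to a standard deviation, was 0.19.

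Cpa3, a zinc carboxypeptidase that removes the last residues of peptides, had 10.40 in the ablated sample and 11.10 in the control sample. The difference of -0.70 is 1.62-fold, and 2.60% of the genes of like signal were as low. Their spread was 0.15, smaller than the difference of Cpa3. This spread is taken across genes and does not measure the error of a single gene. Mcpt4, the chymase whose cleavage preference is closest to that of human chymase, had 8.47 in the ablated sample and 9.06 in the control sample. It was 1.51-fold lower in the ablated sample (difference -0.59), and 3.81% of genes of like signal were as low.

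Cma1, the other chymase of connective-tissue mast cells, differed less. Its signal was 7.11 in the ablated sample and 7.35 in the control sample, a difference of -0.24 beside a spread of 0.21 in its bin, where 14.4% of genes were as low. Tpsab1, the second tryptase, had 6.26 in the ablated sample and 6.57 in the control sample. Its difference of -0.31 compares with a spread of 0.22, and its ablated signal lay below the filter. The RefSeq table of assembly GRCm38, built on C57BL/6J, lists Tpsab1 as a transcribed pseudogene. Tpsb2 and Tpsab1 are related copies, and their probes were not located here, so how far each signal is separate is uncertain.

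Among the receptors, Mrgprb1 stood apart from the other 3. Mrgprb1, a Mas-related G protein-coupled receptor of mouse mast cells, had 6.59 in the ablated sample and 7.52 in the control sample. It was 1.91-fold lower in the ablated sample (difference -0.93), and 2.27% of the 1232 genes in its bin were as low, with a spread of 0.23. Kit, the receptor for stem cell factor, had 7.64 in the ablated sample and 7.81 in the control sample, and its difference of -0.17 lay within the spread of 0.21 of genes of like signal. Kit is not restricted to mast cells, being known also in luminal progenitors of the mammary gland, melanocytes and blood progenitors.

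Both listed chains of the high-affinity IgE receptor lay below the signal filter. Fcer1a, the chain that binds IgE, had 3.61 in the ablated sample and 3.90 in the control sample, far below the filter. Its difference of -0.29 beside a spread of 0.28 cannot be told from variation of dim signals. Ms4a2, the beta chain that amplifies the signal, had 5.40 in both samples. The series matrix, which gives more decimals, also held the same value in both columns for Ms4a2, 5.4046, as it did for 1.86% of all genes. Fcer1g, the gamma chain, which other Fc receptors share, had 11.12 in the ablated sample and 11.10 in the control sample.

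Hdc, which makes histamine from histidine, had 8.0 in the ablated sample and 8.29 in the control sample. The difference of -0.29 is 1.22-fold, with a spread of 0.19 in its bin, where 9.98% of genes were as low. In the authors' deposited table, whose signed fold runs control over ablated, the folds were 1.94 for Tpsb2, 1.89 for Mrgprb1, 1.63 for Cpa3, 1.5 for Mcpt4 and 1.22 for Hdc. Kit had 1.12 and Ms4a2 had 1 in the authors' deposited table.

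**Figure D2:**
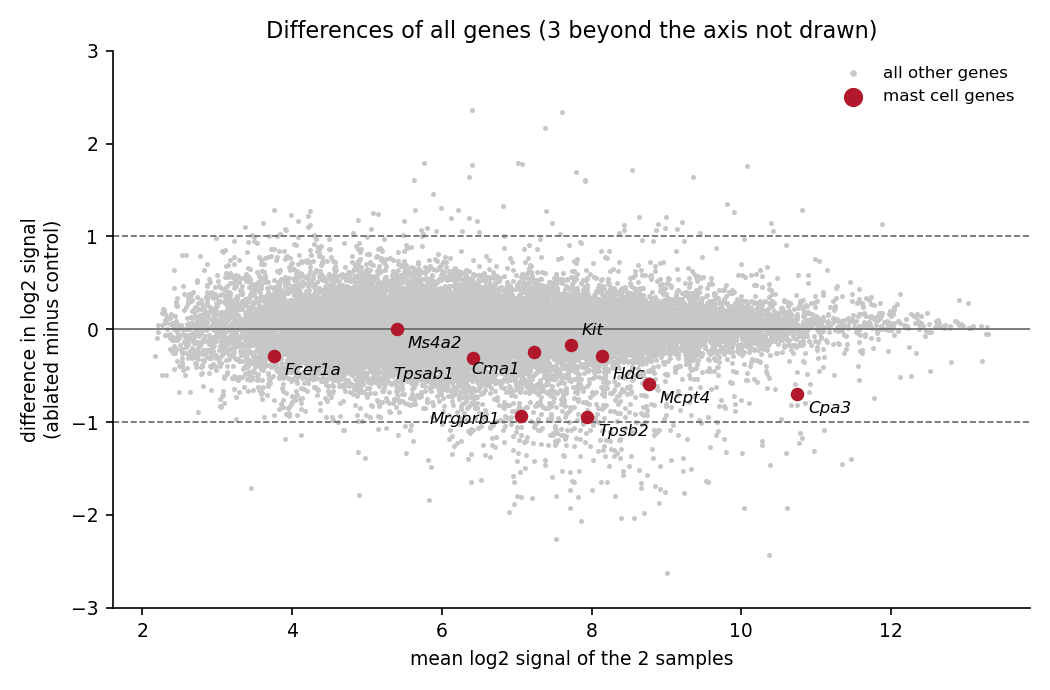
Difference in log2 signal (ablated minus control) against mean log2 signal for every gene (grey) and the 10 mast cell genes (red), with dashed lines at 2-fold; 3 genes beyond the axis are not drawn. Tpsb2 (-0.95) and Mrgprb1 (-0.93) lie just inside the lower 2-fold line, Cpa3 (-0.70) and Mcpt4 (-0.59) at the lower edge of the cloud at their signal, and Kit (-0.17) and Ms4a2 (0.00) within it.

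Promoter sequence was examined because GATA2 and MITF are known regulators of mast cell genes. RefSeq windows on GRCm38, from 250 bases before to 50 after the transcription start, were available for 8 of the 10 genes, and Tpsb2 and Tpsab1 had no entry. The GATA motif was searched as the letters GATA with A or T before them and A or G after them, on both strands. It was present in 7 of the 8 genes, Kit being the exception, and in 33.0% of all 27025 genes with a window. The MITF E-box was searched as CACGTG and, with its middle changed, as CATGTG, again on both strands. It was found in 1 of the 8, Fcer1a, and in 22.7% of all genes. A match describes the letters only and is not evidence of binding.

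The stretch from 150 to 31 bases before the start is shown for the matched genes with the widest differences, Mrgprb1, Cpa3 and Mcpt4, and for the chymase Cma1, which differed less. Capitals mark the GATA matches, and all are written 5′ to 3′ on the gene's strand, which is the minus strand in each case. The regions are chr7:48456373-48456492 for Mrgprb1, chr3:20242212-20242331 for Cpa3, chr14:56062341-56062460 for Mcpt4 and chr14:55944706-55944825 for Cma1.
Mrgprb1: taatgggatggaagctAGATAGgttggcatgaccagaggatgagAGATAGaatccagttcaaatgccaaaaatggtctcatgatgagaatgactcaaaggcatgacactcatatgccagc
Cpa3: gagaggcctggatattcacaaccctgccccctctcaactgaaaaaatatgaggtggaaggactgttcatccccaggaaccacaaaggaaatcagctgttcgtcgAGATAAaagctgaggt
Mcpt4: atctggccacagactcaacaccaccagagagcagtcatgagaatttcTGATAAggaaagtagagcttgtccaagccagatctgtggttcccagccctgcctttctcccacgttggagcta
Cma1: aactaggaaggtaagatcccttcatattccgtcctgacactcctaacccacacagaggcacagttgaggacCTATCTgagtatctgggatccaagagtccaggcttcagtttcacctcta

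Mrgprb1 held 2 matches, beginning 134 and 106 bases before the start. The Cpa3 match began 46 bases before the start, and that of Mcpt4 began 103 bases before it. In Cma1 the match lay on the opposite strand, 79 bases before the start. Ms4a2, whose signal was equal in both samples and below the filter, held 3 GATA matches.

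The chymase genes lie together on chromosome 14, the tryptases on chromosome 17 and the Mrgpr genes on chromosome 7, and the neighbours of the described genes were compared in RefSeq order. This choice of genes was made after the values were seen. Of 17 chymase-cluster genes with a signal, from Cma1 to Gzmb, 4 passed the filter. They were Cma1, Mcpt4, the predicted gene Gm5801 (6.32 in the ablated sample and 6.58 in the control sample) and Gzmb, a granzyme of cytotoxic lymphocytes that mast cells can also make. Gzmb went the other way, with 9.40 in the ablated sample and 9.25 in the control sample. Mcpt1 and Mcpt2, the chymases that mark mucosal mast cells, were below the filter in both samples, at 4.27 and 3.88 in the ablated sample and 4.29 and 3.72 in the control sample. Mcpt8, a basophil protease, was also below it, with 5.25 in the ablated sample and 5.20 in the control sample.

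In the tryptase cluster, Tpsb2 and Tpsab1 were the genes of 6 that passed the filter. Tpsg1, the membrane-anchored tryptase next to Tpsb2, had 5.43 in the ablated sample and 5.72 in the control sample. The Mrgpr cluster was evenly divided, 8 of its 16 genes lower and 8 higher (median -0.07). Mrgprb1 had the lowest difference there, while its neighbour Mrgprx2 had 7.20 in the ablated sample and 7.14 in the control sample. Mrgprb2, the receptor through which cationic peptides and drugs activate connective-tissue mast cells in the mouse, lay below the filter, at 5.50 in the ablated sample and 5.74 in the control sample.

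**Figure D3:**
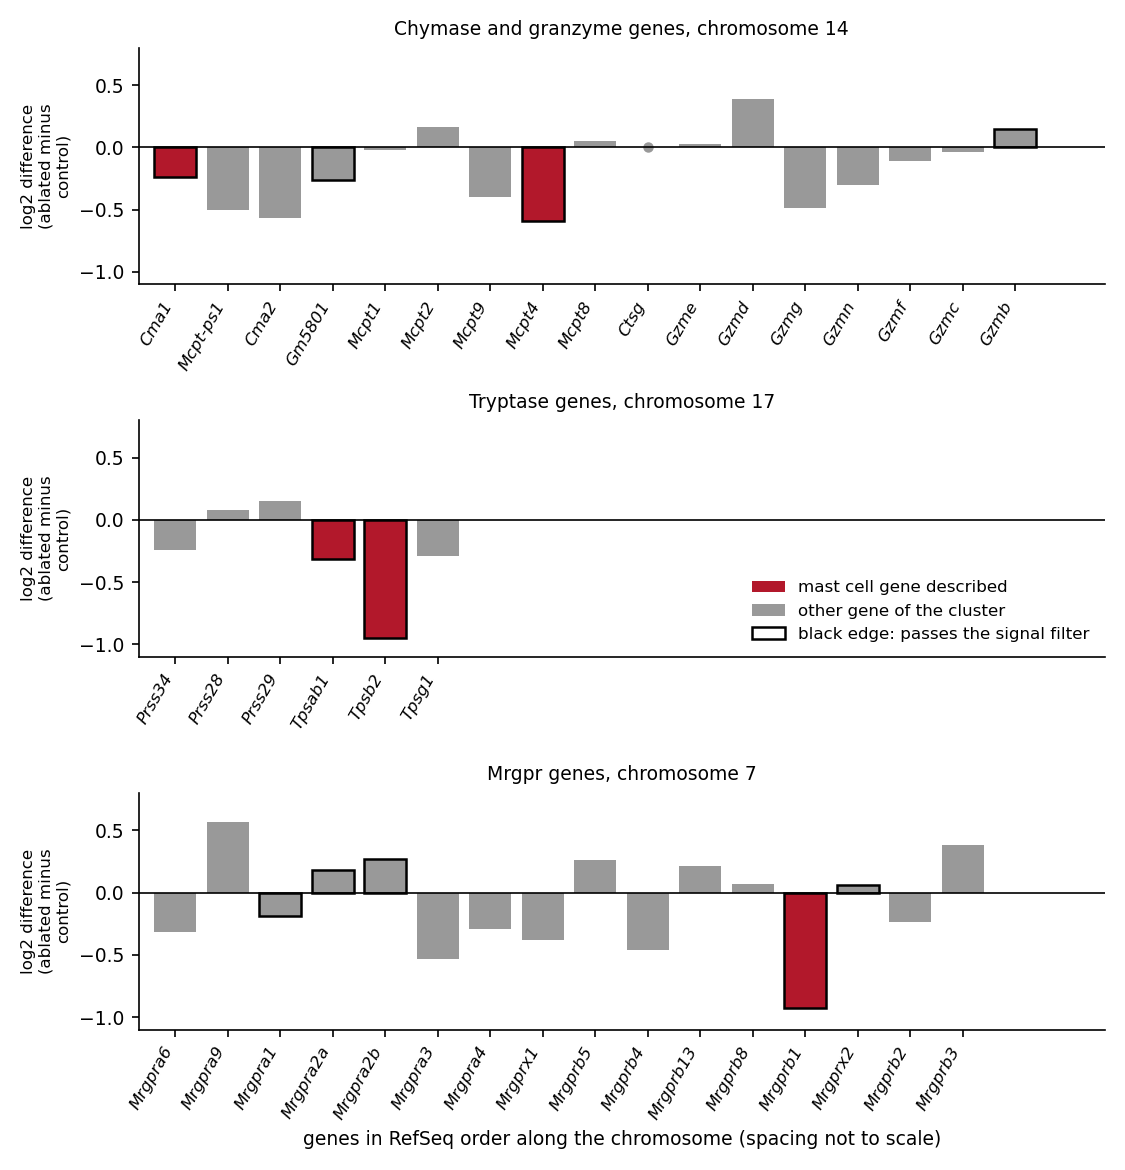
Difference in log2 signal (ablated minus control) of the genes around the chymases, the tryptases and Mrgprb1, in RefSeq order along chromosomes 14, 17 and 7; red bars are the mast cell genes described, grey bars their neighbours, a dot a difference of 0, and a black edge marks genes that pass the signal filter. Mcpt4 (-0.59), Tpsb2 (-0.95) and Mrgprb1 (-0.93) are the lowest bar of their clusters.

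Other genes known in mast cells were mixed. Of 21 measured, 11 were lower and 10 higher, with a median of -0.04. Of the 11 that passed the filter, which a gene can pass through its higher sample alone, 8 were lower and 3 higher (median -0.15). Lowest among those were Gata2, a transcription factor that mast cells need (6.14 in the ablated sample and 6.79 in the control sample, difference -0.65), and Slc18a2, the transporter that loads histamine into granules (6.10 and 6.73, difference -0.63), both with an ablated signal below the filter. The serotonin transporter Slc6a4 had a difference of -0.58, and Rab27b, a GTPase of granule release, one of 0.42. Mitf differed by 0.05, and Il1rl1, the receptor for the alarmin Il33, by -0.05. Among other chymases and tryptases only Gzmb of 7 passed the filter.

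Granule and heparin genes, which most cell types use, had 13 of 21 lower and 8 higher, while 47.0% of all genes were lower. Their median of -0.12 lay within the spread of 0.22 over all genes. Cd63, a tetraspanin of granule and lysosome membranes, had 9.08 in the ablated sample and 10.02 in the control sample (difference -0.94). Serglycin, Srgn, the core protein that carries heparin in mast cell granules and is also made by other leukocytes, had 11.55 in the ablated sample and 11.47 in the control sample. Rab27a, a GTPase of granule docking, had 9.14 in the ablated sample and 8.41 in the control sample (difference 0.73). Ndst2, which sulfates heparin, differed by -0.11.

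Genes of signalling below the IgE receptor leaned the other way: 18 of 22 were higher and 4 lower (median 0.10). Among all 24646 genes, 12314 were higher. The median of 0.10 lay within the spread of 0.22 over all genes. All 22 passed the filter, and T cells, B cells and macrophages use most of them. The kinase Syk differed by 0.25, the adaptor Lat by 0.23 and the kinase subunit Pik3r1 by 0.22. Gab2, an adaptor of mast cell activation, was the lowest at -0.51, with 7.84 in the ablated sample and 8.35 in the control sample.

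Most factors that feed or attract mast cells were lower. Of 14 measured, 12 were lower, 1 equal and 1 higher, while 47.0% of all genes were lower. The median was -0.385. At least 2-fold lower were 4 of the 14, or 3 without Il3, whose ablated signal lay below the filter. At least 2-fold higher was 1 of the 14, Il9, whose signals both lay below the filter. Of all genes, 0.933% were at least 2-fold lower and 0.304% at least 2-fold higher. Kitl, stem cell factor itself, had 7.54 in the ablated sample and 8.32 in the control sample (difference -0.78). Il3, a mast cell growth factor of lymphocytes, had 5.12 in the ablated sample and 6.60 in the control sample (difference -1.48, of uncertain size).

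The other 3 genes at least 2-fold lower were the chemokine Ccl2 (-1.31), the alarmin Il33 (-1.09) and the chemokine Cxcl12 (-1.06), all of which fibroblasts also make. Il9, a T cell cytokine for mast cells, was the gene that was higher (difference 1.24). It had 5.77 in the ablated sample and 4.53 in the control sample, both below the filter.

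Genes that handle or sense histamine and eicosanoids were divided, 9 of 17 lower and 8 higher (median -0.06). Ptgs2, the inducible prostaglandin synthase, had 9.61 in the ablated sample and 10.37 in the control sample, and Pla2g4a, which frees arachidonic acid, had 6.38, below the filter, and 7.04. Higher in the ablated sample were the histamine-degrading oxidase listed as Abp1 (0.54) and the leukotriene receptor Cysltr2 (0.50). The histamine-degrading methyltransferase Hnmt lay below the filter. Of 9 receptors for proteases or IgE, 6 were higher and 3 lower (median 0.10), while 12314 of all 24646 genes were higher. F2rl1, the receptor that tryptase can cleave, had 7.34 in the ablated sample and 7.02 in the control sample.

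Markers of other cell types also differed between the samples, and their part in the result was not tested. Of all genes, 47.0% were lower and 0.933% at least 2-fold lower. All 15 fibroblast markers were lower, and 10 were at least 2-fold lower. Their median was -1.29, with a mean log2 signal of 8.10 in the ablated sample and 9.23 in the control sample. All 8 endothelial markers were lower, with a median of -0.52 and a mean of 7.76 in the ablated sample and 8.31 in the control sample. The macrophage list had 10 of 13 lower (median -0.19, mean 8.14 in the ablated sample and 8.37 in the control sample). That median lay within the spread of 0.22 over all genes. Of 14 markers of T and NK cells, 13 were higher (median 0.315), against 12314 of all 24646 genes. Their mean was 9.55 in the ablated sample and 9.22 in the control sample. The 10 mast cell genes averaged 7.10 in the ablated sample and 7.54 in the control sample. Defining markers of fibroblasts, macrophages, endothelium and T cells (Pdgfra, Csf1r, Cdh5, Cd3e) all passed the filter.

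**Figure D4:**
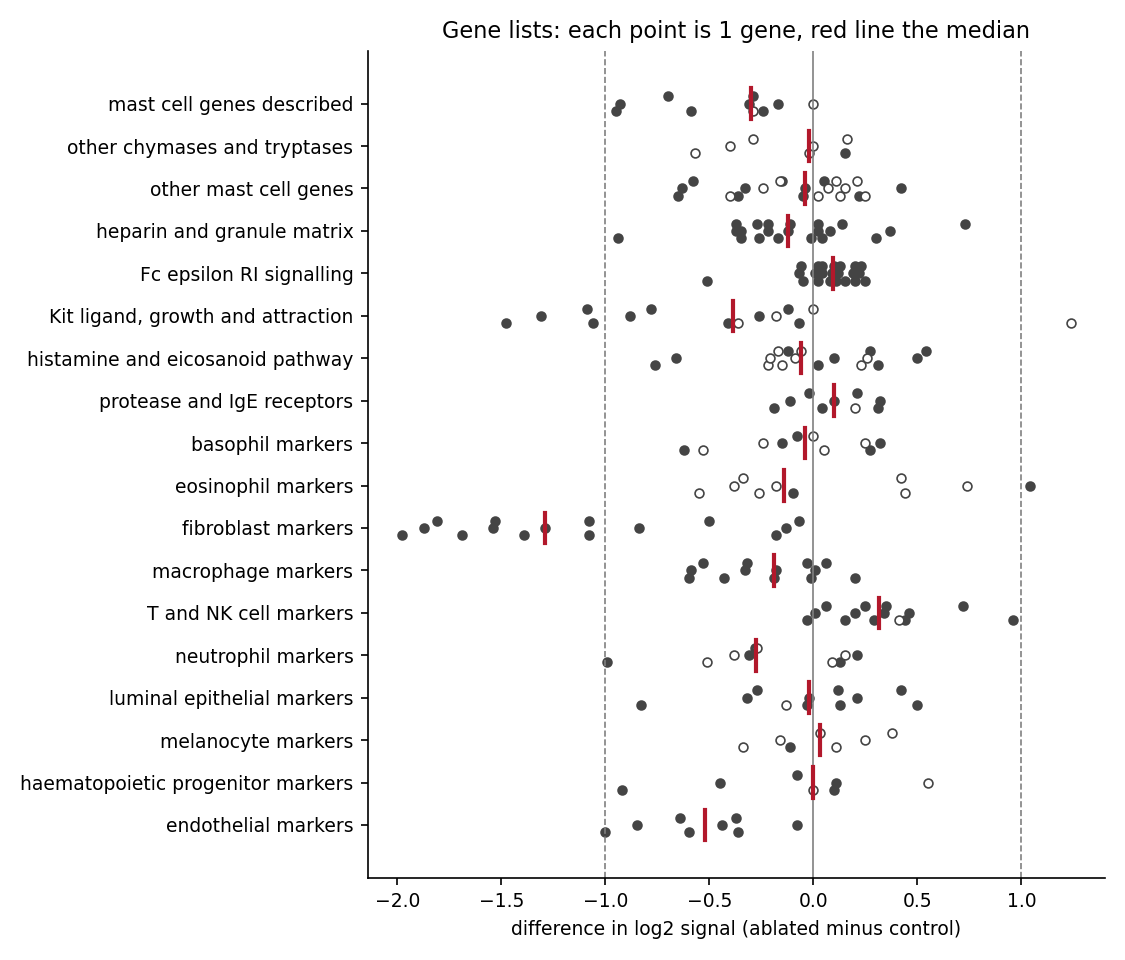
Difference in log2 signal (ablated minus control) of every measured gene of 18 lists; filled points pass the signal filter, open points do not, red lines are medians over all measured genes and dashed lines mark 2-fold. The medians of the 18 lists run from the fibroblast markers (-1.29) to the T and NK cell markers (0.315). Nearest to the described mast cell genes (-0.30) are the neutrophil markers (-0.275) and the growth and attraction factors (-0.385).

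Lists for other cells in which Kit or mast cell genes are known were mixed or dim. Of 11 luminal epithelial markers, 6 were lower and 5 higher (median -0.02), from Aldh1a3 (-0.83) to the prolactin receptor Prlr (0.50). Of 7 melanocyte markers, 6 lay below the filter, among them the pigment enzymes Tyr, Tyrp1 and Dct. Among all 24646 genes, 12323 passed the filter. The blood progenitor list had 3 lower, 3 higher and 1 equal, with Cd34, which endothelium and fibroblasts also express, at -0.92. Among 10 basophil markers 5 were lower, 4 higher and 1 equal (median -0.04), and both basophil proteases listed, Mcpt8 and Prss34, lay below the filter.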

How the data were processed

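The authors deposited 1 comparison table with a log2 signal per transcript cluster and sample, a bi-weight average per the file headers, and a signed linear fold of control over ablated. They also deposited a series matrix of log2 values with more decimals, which differed from the comparison table beyond rounding in 2 rows, Gli2 and Bmp7. Per the submitters' processing notes, Transcriptome Analysis Console was used. The sources used here give neither the array design nor how signals were background-corrected and normalized, nor a genome build. A normalization can remove a shift that all genes share.

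Of 41345 rows with values, 27036 had a symbol, and each of 24646 symbols was read from its brightest row by mean signal. The measure was the log2 signal of the ablated minus the control sample, counted at fixed folds, since 1 sample per group allows no test. The members and lists were chosen with earlier results of these data known. Of 230 list entries, 223 matched by symbol, 5 by a RefSeq synonym and 2 were not found. Beyond the 10 genes, the rule named in each list up to 4 genes passing the filter with the widest differences and all at least 2-fold apart, some of which are left to counts. Other genes named, among them Srgn, Fcer1g, Mitf, Il1rl1, Ndst2, Kitl, Il9 and the genes of the clusters, were chosen after their values were seen. On simulated data over 24646 genes, 99% of 200 genes shifted by -1.5 passed 2-fold and 1 unchanged gene did. The simulated noise was normal with a spread of 0.22, and the shifted genes were drawn from brighter ones. Those settings largely fix the outcome, so it checks the calculation and not how often unchanged genes pass 2-fold on real arrays. Tools were Python 3.11.15 with pandas 2.3.3, numpy 2.4.6, matplotlib 3.10.9 and statsmodels 0.14.6.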

Additional observations from a re-analysis of the deposited data

How the results depend on the processing

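Alternatives were quantile and loess (span 0.3) scaling, centring on the median, the mean over rows and the row with the lowest signal. The authors' deposited fold and the series matrix were also used. Each of the 10 genes moved by at most 0.054 on the log2 scale, less than the spread of 0.22 over all genes. The count at least 1.5-fold lower was 4 under all 7 of these alternatives. Each of the 10 genes has 1 row and the median over all genes was already 0. The row choices and the centring therefore could not change their values. The deposited fold and the series matrix hold the same measurements of these genes at other rounding. The count lower was 10 in place of 9 under quantile and loess scaling, where Ms4a2 fell just under 0. The count of 0 at 2-fold became 4 at 1.5-fold and stayed 0 at 3-fold and among the 8 genes passing the filter. The median of -0.30 became -0.645 over the 4 genes passing a filter at the 75th percentile of signal (7.87), as fewer genes enter it. It was -0.45 over the 8 passing the filter of 6.445. Both filters use the higher sample, so a gene can pass through the control sample alone. Tpsb2 (7.47 in the ablated sample and 8.42 in the control sample) passed 7.87 in this way. Tpsab1 (6.26 in the ablated sample and 6.57 in the control sample) passed 6.445 in this way. The medians of genes passing a filter are therefore a description only. Of 85 list medians under alternatives, 2 moved by more than the spread, both without the filter: the growth and attraction factors (-0.83 with it and -0.385 without) and the eosinophil markers (0.47 and -0.14). The difference of Gli2 was -0.22 in the series matrix, an alternative chosen after seeing the data. No paired analysis was possible because each group has 1 sample, and no replicate could be left out. Signals below the filter are not shown to exceed background, which limits Fcer1a, Ms4a2 and the ablated values of Tpsab1, Gata2, Slc18a2, Il3, Pla2g4a, Gm5801 and Ngp.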

Other observations

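Eosinophil markers were mostly dim, while neutrophil markers were evenly divided about the signal filter. Of all 24646 genes, 12323 passed it. Of 10 eosinophil markers measured, 8 lay below the signal filter, among them the granule proteins Epx (4.93 in the ablated sample and 5.19 in the control sample) and Prg2 (5.68 and 6.23). Ear2, an eosinophil-associated ribonuclease that macrophages are also known to make, was 9.97 in the ablated sample and 8.93 in the control sample (difference 1.04). The chemokine receptor Ccr3 had 6.31 in the ablated sample and 5.57 in the control sample, both below the filter. Of 10 neutrophil markers, 6 were lower and 4 higher, while 47.0% of all genes were lower. Their median was -0.275, and 5 lay below the filter. The neutrophil granule protein Ngp had 6.32 in the ablated sample and 7.31 in the control sample (difference -0.99), the ablated signal lying below the filter.

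The 2 deposited tables agreed to within rounding (0.0051) in 41343 of 41345 rows, and the 2 rows that did not were Gli2 and Bmp7. For Gli2 the ablated signal was 5.32 in the comparison table and 5.72 in the series matrix. For Bmp7 the comparison table held 7.14 in the ablated sample and 7.79 in the control sample (difference -0.65), and the series matrix held 7.56 and 7.90 (difference -0.35). The sources used here do not say why. All 10 mast cell genes agreed between the tables. Values equal in both samples to every decimal given, as for Ms4a2, stood in 764 rows of the series matrix (1.85%).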
